A study of Homo sapiens with 8 samples.

Results

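TERLR1, a long non-coding RNA gene, and SLC6A18, a transporter gene, lie on the short-arm end of chromosome 5, and both were strongly lower in EndoC-βH5 cells after cytokine exposure. These 2 genes, of 16525 in the expression table, were chosen by their CPM in cytokine against control libraries, so that contrast is described here by its values, without a test. EndoC-βH5, an established line of human beta cells, is of fetal pancreatic origin and was immortalised with SV40 large T and hTERT transgenes that were afterwards removed. RNA was sequenced from 4 control cultures and from 4 cultures treated for 48 h with IL-1β, IFNγ and TNFα together. Both groups are of the same single line, no other allele or agent differs between them, and the labels name no passage or separate culture for each library, so p-values measure the spread between these libraries. Values are CPM, the read count of a gene divided by its library's total and scaled alike in all libraries. Control and cytokine columns whose names begin alike form the pairs A, B, C and D.

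SLC6A18 belongs to the SLC6 family of sodium-coupled transporters, which carry neurotransmitters, amino acids and osmolytes into cells. SLC6A18 is best known from the brush-border membrane of kidney proximal tubule. The adjacent gene SLC6A19 is known from the brush border of both kidney and small intestine. Its protein takes up neutral amino acids there and depends on partner proteins such as collectrin (gene CLTRN). TERLR1 is an lncRNA gene whose approved name ties it to TERT, the telomerase reverse transcriptase gene that lies beyond SLC6A18. Long non-coding RNAs are transcripts without a known protein product, and many are made in a narrow range of cell types.

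In GENCODE release 29 on GRCh38, TERLR1 (ENSG00000249201, listed there under a clone name and the type antisense) occupies chr5:1173141-1178605 on the minus strand, with 3 transcripts whose merged exons number 5 and hold 1761 bases. SLC6A18 (ENSG00000164363, protein-coding) occupies chr5:1225355-1246189 on the plus strand, with 12 merged exons and 2121 exon bases. SLC6A19 lies between them on the plus strand, 22989 bases from TERLR1, and ends 237 bases before SLC6A18 begins. TERLR1 and SLC6A19 point away from each other, with 22990 bases between their starts. On the far side of TERLR1 the next listed gene is SLC12A7, a potassium-chloride cotransporter gene, 61105 bases away, and TERT lies 6957 bases beyond SLC6A18. No gene of this annotation overlaps TERLR1, SLC6A19 or SLC6A18; the reads were counted on a later Ensembl annotation, which was not used here.

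The start regions of the 2 genes and of the listed genes on either side of TERLR1 are shown because these 4 genes changed in different directions over a short stretch. Each sequence runs 5′ to 3′ from 250 bases before to 50 bases after the RefSeq start on GRCh38.p14, and capitals mark matches to a searched motif.
SLC12A7, chr5:1112014-1112313, minus strand: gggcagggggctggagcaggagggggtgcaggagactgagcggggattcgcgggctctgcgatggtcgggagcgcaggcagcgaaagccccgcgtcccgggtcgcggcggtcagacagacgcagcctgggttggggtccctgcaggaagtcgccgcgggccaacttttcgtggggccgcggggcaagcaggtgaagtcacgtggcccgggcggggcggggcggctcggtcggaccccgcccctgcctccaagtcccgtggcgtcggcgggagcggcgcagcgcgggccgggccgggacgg
TERLR1, chr5:1178556-1178855, minus strand: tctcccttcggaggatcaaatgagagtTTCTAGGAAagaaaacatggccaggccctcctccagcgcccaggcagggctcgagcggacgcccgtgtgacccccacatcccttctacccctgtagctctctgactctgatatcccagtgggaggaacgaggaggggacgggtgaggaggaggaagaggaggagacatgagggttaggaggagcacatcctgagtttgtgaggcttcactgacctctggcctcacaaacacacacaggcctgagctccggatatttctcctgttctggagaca
SLC6A19, chr5:1201345-1201644, plus strand: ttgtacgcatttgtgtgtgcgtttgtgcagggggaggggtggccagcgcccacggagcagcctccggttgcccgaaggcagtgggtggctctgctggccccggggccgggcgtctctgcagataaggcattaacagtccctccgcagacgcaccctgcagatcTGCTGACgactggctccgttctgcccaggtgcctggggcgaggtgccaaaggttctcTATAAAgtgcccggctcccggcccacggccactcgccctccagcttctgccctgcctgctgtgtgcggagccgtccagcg
SLC6A18, chr5:1225131-1225430, plus strand: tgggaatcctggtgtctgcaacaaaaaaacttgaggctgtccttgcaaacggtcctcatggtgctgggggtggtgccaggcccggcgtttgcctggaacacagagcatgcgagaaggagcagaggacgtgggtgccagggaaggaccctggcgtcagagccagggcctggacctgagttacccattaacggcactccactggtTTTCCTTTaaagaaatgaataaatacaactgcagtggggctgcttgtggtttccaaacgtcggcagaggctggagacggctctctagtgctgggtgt

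Both strands were searched for 8 motifs: the GAS element of interferon-gamma signalling (TTCNNNGAA), an IRF element (AANNGAAA), an NF-kB element, a FOXA element (TGTTTAC), an HNF4 element (CAAAGTCCA), a MAF half-site (TGCTGAC), an AP-1 element (TGANTCA) and a TATA box (TATAAA). The TERLR1 region holds 1 GAS match that begins 223 bases before the start and reads as the motif on both strands. That motif is in 7.66% of the 35116 RefSeq regions of this length. The SLC6A18 region holds an IRF match on the opposite strand 47 bases before the start, a motif found in 22.8%. The SLC6A19 region holds a MAF half-site (in 4.19% of regions) and a TATA box (in 11.5%). None of the 8 was found in the SLC12A7 region, where G and C make up 76.3% of bases against 57.3% for TERLR1, 56.0% for SLC6A18 and 66.7% for SLC6A19. No matches of different motifs overlapped, and a match is a run of letters, not a shown binding site.

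The 8 libraries held 36577438 to 40117636 reads on listed genes, 1 read equalled 0.0196 to 0.0214 CPM, and 20.1% to 26.6% of each total fell elsewhere. A count of 0 allows up to 3 reads, or 0.0587 to 0.0641 CPM, and this limit covers counting error only. All 9 beta-cell markers of the list used were listed, INS at 2169 ± 744 CPM in control libraries (SD, n = 4), with 2 of 6 exocrine markers, 3 of 10 markers of kidney proximal tubule or small intestine and 1 of 6 markers of other cell types. In bulk RNA, fewer expressing cells and less RNA per cell cannot be told apart.

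TERLR1 was expressed in every control library. It was at 15.5 CPM (723 reads) in control library A, 13.6 CPM (644 reads) in B, 6.65 CPM (334 reads) in C and 9.502 CPM (486 reads) in D. With cytokines it was at 0.703 CPM (33 reads) in A, 0.384 CPM (18 reads) in B, 0.221 CPM (11 reads) in C and 0.542 CPM (27 reads) in D. The lowest control library was thus far above the highest cytokine library, and the groups did not overlap. The means were 11.3 ± 3.98 CPM and 0.463 ± 0.207 CPM (SD, n = 4 each), a level 24.4-fold lower with cytokines. On the log2(CPM + 0.1) scale the difference was -4.35, the largest fall among the 16525 genes at this pseudocount (rank 1 to 4 over all settings tried), and within the pairs it was -4.28 in A, -4.83 in B, -4.39 in C and -3.90 in D.

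Without cytokines TERLR1 was an abundant lncRNA for this line. Its control mean stood above those of 92.1% of the 2419 lncRNA genes in the table, whose median was 1.62 CPM. Per length, it was at 23.8 ± 5.76 TPM (CPM corrected for exon length) in control libraries and at 1.08 ± 0.459 TPM with cytokines (SD, n = 4 each).

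SLC6A18 was expressed at a low level and came close to the limit of detection with cytokines. It was at 2.91 CPM (136 reads) in control library A, 1.63 CPM (77 reads) in B, 1.33 CPM (67 reads) in C and 0.919 CPM (47 reads) in D. With cytokines it was at 0.128 CPM (6 reads) in A, 0 reads in B, which allows up to 0.0641 CPM, 0.101 CPM (5 reads) in C and also 5 reads in D. All 4 cytokine libraries lay below all 4 control libraries. Of the 8 libraries used, only its 4 control libraries exceeded the authors' minimum of 0.5 CPM in 4 samples. Through these 8 libraries, a gene this low with cytokines could be listed only if it was higher in control. Columns not used here can also have counted, since 371 listed genes exceeded the minimum in fewer than 4 of the 8.

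The SLC6A18 means were 1.70 ± 0.858 CPM and 0.0822 ± 0.0563 CPM (SD, n = 4 each), a level 20.6-fold lower with cytokines. On the log2(CPM + 0.1) scale the difference was -3.25, rank 14 of all genes by size of fall. It was -3.72 in pair A, -4.11 in B, -2.84 in C and -2.35 in D. This value depends on the pseudocount because so few reads remained: it was -1.85 with 0.5 CPM added, -1.27 with 1 CPM added, and -4.20 in edgeR and -4.24 in DESeq2 on the recovered reads. Its rank moved from 5 in edgeR and DESeq2 to 240 with 1 CPM added. Per length, SLC6A18 was at 2.94 ± 1.18 TPM in control libraries and 0.164 ± 0.110 TPM with cytokines (SD, n = 4 each), below TERLR1 in both groups.

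**Figure D1:**
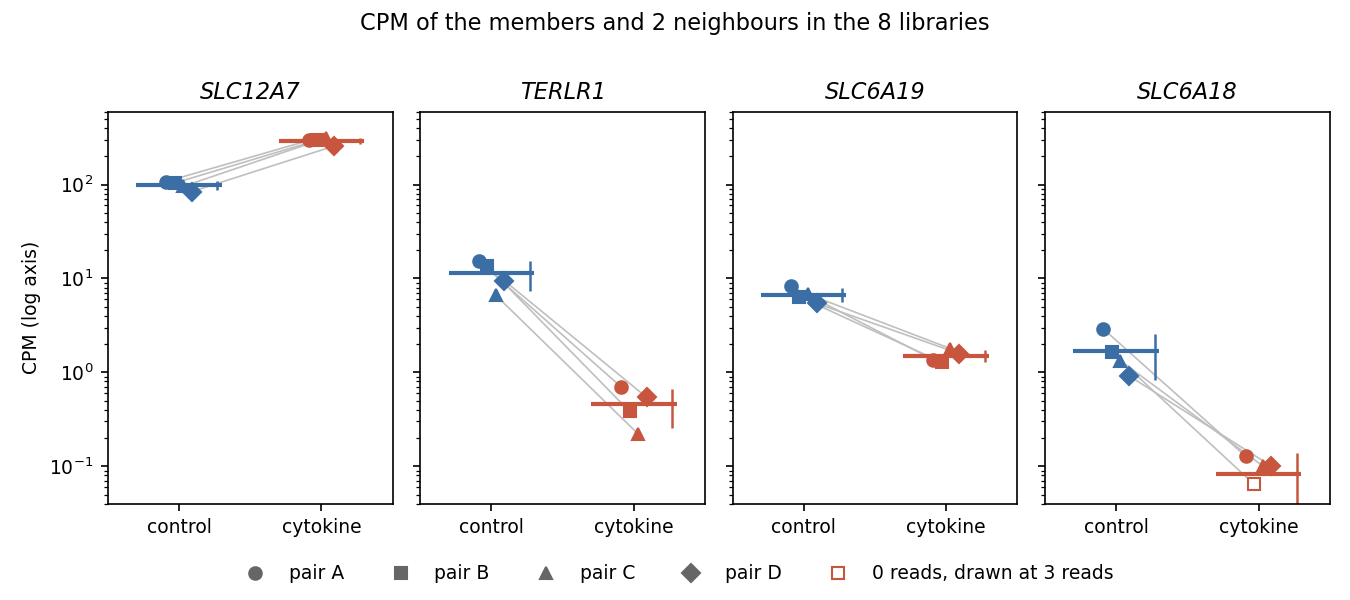
CPM of SLC12A7, TERLR1, SLC6A19 and SLC6A18 on a log axis in the 4 control (blue) and 4 cytokine (red) libraries; symbols give the pair, thin lines join the libraries of a pair, thick lines are means and vertical bars are SD (cut at the lower axis limit for SLC6A18 with cytokines). TERLR1 and SLC6A18 are lower in every cytokine library than in any control library, SLC6A19 is lower by less, and SLC12A7 is higher in every cytokine library.

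SLC6A19 encodes the main apical transporter of neutral amino acids in kidney and intestine, and it fell too. It was at 8.25, 6.39, 6.81 and 5.44 CPM in control libraries A to D and at 1.36, 1.28, 1.79 and 1.59 CPM in cytokine libraries A to D. No cytokine library reached the lowest control library. The means were 6.72 ± 1.17 and 1.51 ± 0.230 CPM (SD, n = 4 each), which gave a log2 fold change of -2.08 (SE 0.20, limma adjusted p = 2.36e-05). By the ratio of mean CPM it was 4.46-fold lower, less than TERLR1 or SLC6A18. On the log2 scale SLC6A19 fell by less than SLC6A18 with a pseudocount of 0.1 or 0.5, and by more with a pseudocount of 1 (-1.62 against -1.27). SLC6A19 was below TERLR1 per length in control cells, at 4.83 ± 0.658 TPM (SD, n = 4).

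The proportions among the 3 adjacent genes changed with treatment, as ratios of CPM within a library show. SLC6A18 stood at 0.169 to 0.352 of the SLC6A19 level in control libraries and at 0 to 0.0938 of it in cytokine libraries, with no overlap. TERLR1 stood at 0.977 to 2.13 times the SLC6A19 level in control libraries and at 0.124 to 0.516 of it in cytokine libraries, again with no overlap. The ratio of SLC6A18 to TERLR1 overlapped between the groups, at 0.0967 to 0.201 in control libraries and 0 to 0.455 in cytokine libraries. These ratios use the values by which the 2 genes were picked and are given without a test, and the ratios of cytokine libraries rest on few reads.

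**Figure D2:**
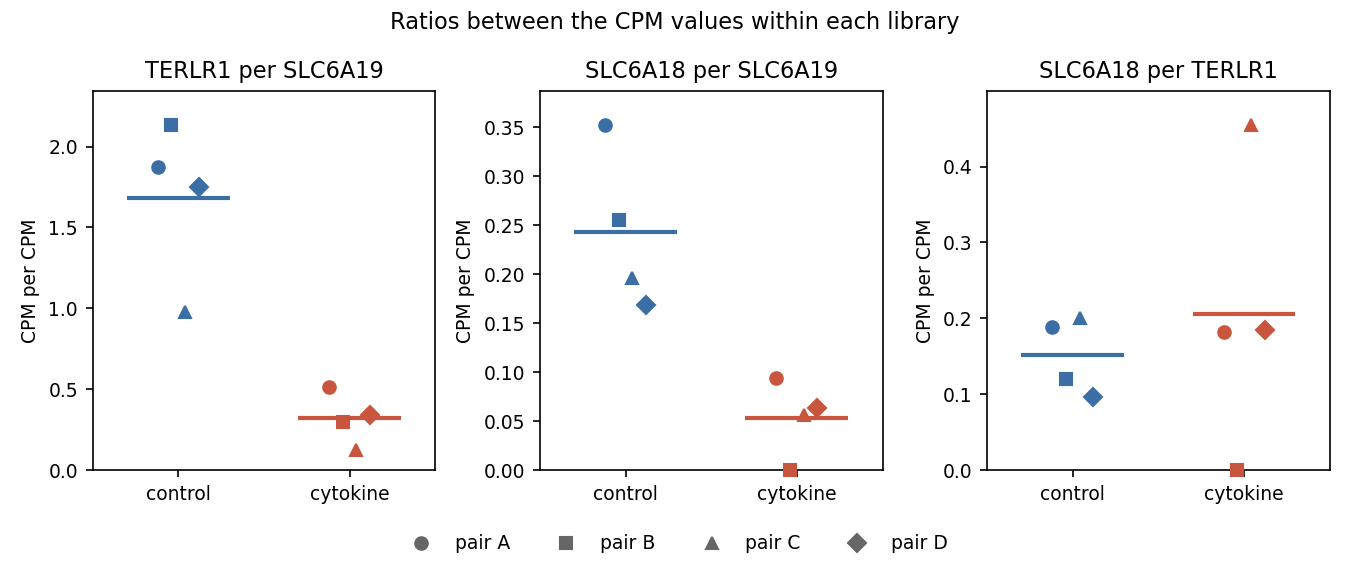
Ratios of CPM between pairs of the 3 adjacent genes in each library, from 0 on a linear axis, with the mean of each group as a line and symbols for pairs A to D. TERLR1 and SLC6A18 are lower relative to SLC6A19 in every cytokine library, while the ratio of SLC6A18 to TERLR1 overlaps between groups.

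The gene on the other side of TERLR1 changed in the opposite direction. SLC12A7 was at 108, 104, 95.7 and 84.1 CPM in control libraries A to D and at 295, 297, 313 and 258 CPM with cytokines. Every cytokine library was above every control library. The means were 97.8 ± 10.4 and 291 ± 23.2 CPM (SD, n = 4 each), which gave a log2 fold change of 1.57 (SE 0.12, limma adjusted p = 4.43e-06).

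TERT, beyond SLC6A18, did not pass the test. It was at 18.2, 18.9, 32.0 and 23.0 CPM in control libraries A to D and at 17.0, 19.1, 19.7 and 19.5 CPM with cytokines. The groups overlapped, and control library C was the highest. The means were 23.0 ± 6.32 and 18.8 ± 1.27 CPM (SD, n = 4 each), which gave a log2 fold change of -0.25 (SE 0.18, limma adjusted p = 0.305). The adjusted p ranged from 0.0555 to 0.864 over the other settings tried. The line once carried an hTERT transgene, and reads of any copy left after its removal could be counted on TERT. Whether such reads were present was not tested.

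Of 7 listed genes within 300 kb of TERLR1 or SLC6A18, the 2 themselves left out, 2 were called lower and 1 higher. A gene was called when its log2 fold change exceeded 0.5 in size with an adjusted p below 0.05, and over all 16525 genes 17.5% were called lower and 9.52% higher. TRIP13, which encodes an ATPase of meiosis and the mitotic checkpoint, fell from 3.03 ± 0.848 to 0.926 ± 0.447 CPM (SD, n = 4 each), which gave a log2 fold change of -1.66 (SE 0.31, limma adjusted p = 0.00231). The bromodomain gene BRD9, whose start overlaps that of TRIP13 head to head, had a log2 fold change of 0.013 (adjusted p = 0.963). CLPTM1L, a membrane protein gene next to TERT, had one of -0.34 (adjusted p = 0.0685), and LPCAT1, a phospholipid acyltransferase gene, one of -0.28 (adjusted p = 0.216). With the pairs as a replicate block in limma, adjusted p was 0.000468 for CLPTM1L and 0.00299 for LPCAT1. In edgeR with that block it was 0.0267 and 0.185. Both changes stayed under 0.5 in size, so neither gene was called. The median of all genes was -0.17.

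Within 1 Mb, 25 other genes were listed, of which 5 were called lower, 2 higher and 18 in neither direction. These shares lie near those of the whole table. All 4 cytokine libraries lay below all 4 control libraries in 6 of the 25 (21.9% of all genes) and above them in 2 (10.8% of all genes). The remaining genes called lower were SLC9A3-AS1 (log2 fold change -1.28, adjusted p = 0.000330), EXOC3-AS1 (-0.71, adjusted p = 0.0268) and the unnamed lncRNA gene ENSG00000248994 (-0.90, adjusted p = 0.0209). The first and second are antisense genes of SLC9A3, which was not listed, and of EXOC3, which had a log2 fold change of -0.44. The libraries were stranded and counted with default parameters of HTSeq, which use strand, per the methods. TPPP, a tubulin-binding protein gene, rose by 0.82 on the log2 scale (adjusted p = 0.00117). The EXOC3-AS1 call was lost without control library C, control library D or cytokine library A, with adjusted p from 0.0652 to 0.0742. The call of ENSG00000248994 was lost without control library B, cytokine library A or cytokine library B, with adjusted p from 0.0510 to 0.0695. Without cytokine library A the count of neighbours called lower was 3. With the replicate block in limma AHRR (adjusted p = 0.00703) and CEP72 (adjusted p = 0.00876) were also called lower, and CCDC127 (adjusted p = 4.79e-05) higher.

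**Figure D3:**
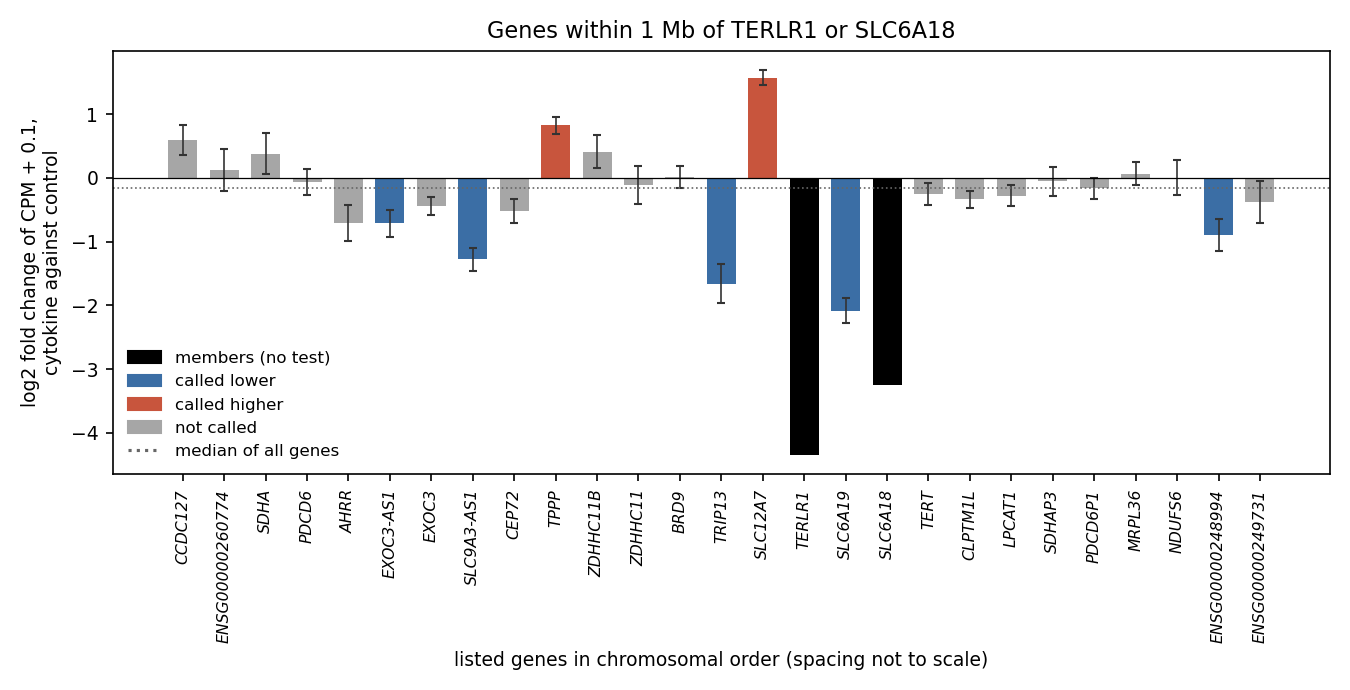
Log2 fold change of CPM + 0.1, cytokine against control, for the listed genes within 1 Mb in chromosomal order, with SE bars for tested genes and a dotted line at the median of all genes. The deep falls are at TERLR1, SLC6A19 and SLC6A18, between the rise of SLC12A7 and the TERT value, which did not pass the test.

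The 4 pairs fall in 2 sets by the ending of their column names, A and B in 1 set and C and D in the other, and the sources used here do not say what the ending marks. This difference played no part in picking the 2 genes. Over all genes, 20.7% were called between the endings in a fit that also held the treatment. TERLR1 was lower in C and D than in A and B by 0.66 on the log2 scale (SE 0.26, limma adjusted p = 0.0606), so it was not called. Over the other settings its adjusted p ran from 0.00201 to 0.205, and it was called with TMM scaling, with a pseudocount of 0.5, in edgeR and in DESeq2. It was also called without cytokine library B (adjusted p = 0.0291) and without cytokine library D (adjusted p = 0.00622).
For SLC6A18 the same term was -0.25 and moved to -0.77 in edgeR. It is given without a test, since the cytokine libraries that enter it hold 0 to 6 reads and their log2 values are set largely by the pseudocount.

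The fall with cytokines was seen in both sets. On the log2 scale it was -4.55 in A and B and -4.15 in C and D for TERLR1, and -3.92 and -2.59 for SLC6A18. The difference between the sets was 0.40 for TERLR1 and 1.33 for SLC6A18. Both genes were chosen on these falls, and the cytokine values of SLC6A18 rest on 0 to 6 reads, so these differences are a description without a test.

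The SLC6 family moved in both directions. Of 18 genes on the list used besides SLC6A18, 8 were in the table, and 2 were called lower, 2 higher and 4 in neither direction, against 17.5% and 9.52% of all genes called lower and higher, with a median log2 fold change of 0.014 against -0.17 for all genes. Besides SLC6A19, the glycine transporter gene SLC6A9 fell from 17.6 ± 3.01 to 8.50 ± 2.43 CPM (SD, n = 4 each; log2 fold change -1.07, SE 0.22, limma adjusted p = 0.00402). The taurine transporter gene SLC6A6 had the highest level of the family and rose from 137 ± 11.8 to 358 ± 13.0 CPM (SD, n = 4 each; log2 fold change 1.39, SE 0.11, limma adjusted p = 6.01e-06). SLC6A12, which encodes a betaine and GABA transporter, rose from 0.142 ± 0.0969 to 0.490 ± 0.110 CPM (SD, n = 4 each; limma adjusted p = 0.0235). That call rests on few reads and was lost without cytokine library C (adjusted p = 0.0594) or cytokine library D (adjusted p = 0.0560). No control library of SLC6A12 exceeded 0.212 CPM, under the authors' minimum of 0.5 CPM. It could be listed only through columns other than the controls, so the filter favoured its rise and its adjusted p is no independent support. The vesicular transporter gene SLC6A17 (log2 fold change 0.25, adjusted p = 0.152) and the creatine transporter gene SLC6A8 (0.17, adjusted p = 0.437) did not pass the test.

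Transporters of amino acids outside the SLC6 family also moved in both directions. Of 26 on the list used, 21 were in the table, and 5 were called lower, 6 higher and 10 in neither direction, against 17.5% and 9.52% of all genes called lower and higher. The median log2 fold change was 0.12. The genes called lower included the neutral amino acid exchanger SLC7A8, the most abundant of the list, at 774 ± 131 CPM in control and 450 ± 75.5 CPM in cytokine libraries (SD, n = 4 each; log2 fold change -0.78, limma adjusted p = 0.00646). SLC7A9 (log2 fold change -1.27, adjusted p = 0.00437), the light chain of the brush-border exchanger of cystine and dibasic amino acids, and SLC38A3 (-1.24, adjusted p = 0.00419), a glutamine transporter, fell as well. SLC43A2 (-0.75, adjusted p = 0.000926), a transporter of large neutral amino acids, fell from 178 ± 23.8 CPM (SD, n = 4). SLC16A10 (-0.63, adjusted p = 0.0269), an aromatic amino acid transporter, completes those called lower. SLC7A8 and SLC16A10 kept a log2 fold change of -0.63 and -0.47 with TMM scaling but were not called there. The SLC16A10 call was also lost without control library C or D or without cytokine library A, B or D, with adjusted p from 0.0543 to 0.0760.

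The 6 genes called higher were led by SLC7A11 (log2 fold change 1.75, adjusted p = 0.0146), the cystine-glutamate exchanger, which had only 0.0949 ± 0.0793 CPM in control libraries (SD, n = 4). SLC38A2 (1.54, adjusted p = 0.000203), a glutamine and alanine transporter, and SLC7A5 (1.53, adjusted p = 0.000305), a leucine exchanger, rose from 21.8 ± 6.19 and 13.0 ± 3.38 CPM (SD, n = 4 each). SLC38A1 (1.38, adjusted p = 0.0168), SLC1A5 (1.17, adjusted p = 0.0194) and SLC38A4 (0.68, adjusted p = 0.0181) were the others. In every control library SLC7A11 and SLC38A1 were under the authors' minimum of 0.5 CPM, at most 0.179 and 0.402 CPM. They could be listed only through columns other than the controls. The filter thus favoured their rises, and their adjusted p is no independent support. The calls of SLC38A1, SLC1A5 and SLC38A4 were each lost when 1 library was left out, cytokine A, control B, and control D or cytokine B, with adjusted p from 0.0531 to 0.0584. SLC3A2, the shared heavy chain of several of these exchangers, was at 124 ± 32.4 and 184 ± 67.1 CPM (SD, n = 4 each; limma adjusted p = 0.109). It was called higher with TMM scaling (adjusted p = 0.0442) and with the replicate block (adjusted p = 5.55e-06).

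Proteins known to work beside SLC6A18 and SLC6A19 at the brush border, and factors known to drive these genes in kidney, formed the last list, of which 8 of 10 were in the table. Of these, 3 were called lower, none higher by limma, edgeR or DESeq2, and 5 in neither direction, against 17.5% called lower and 9.52% called higher of all genes. The median log2 fold change was -0.73. At an unadjusted p below 0.05, 0 were higher by any of these tests. All 8 values were negative in limma, where the median of all genes was -0.17, and 7 of 8 in edgeR and in DESeq2. ACE, a peptidase of angiotensin processing, fell from 59.2 ± 15.1 to 29.03 ± 7.43 CPM (SD, n = 4 each; log2 fold change -1.03, SE 0.22, limma adjusted p = 0.00522). MME, the peptidase neprilysin, fell by 1.24 (adjusted p = 0.000819), and BACE2, the protease known to cut collectrin in beta cells, fell by 1.25 (adjusted p = 4.18e-05) from 147 ± 20.3 CPM (SD, n = 4). CLTRN itself was at 0.841 ± 0.479 and 0.506 ± 0.175 CPM (SD, n = 4 each) and was not called (adjusted p = 0.289).

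The transcription factor gene HNF4A (log2 fold change -0.18, adjusted p = 0.274) was not called. The peptidase genes ANPEP (-0.75, adjusted p = 0.164) and DPP4 (-0.70, adjusted p = 0.0686) were not called either, but both were with the pairs as a replicate block in limma, at adjusted p of 0.0498 and 9.29e-05, which brought the number called lower to 5. In edgeR with the block only DPP4 was added, and 4 were called lower.

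**Figure D4:**
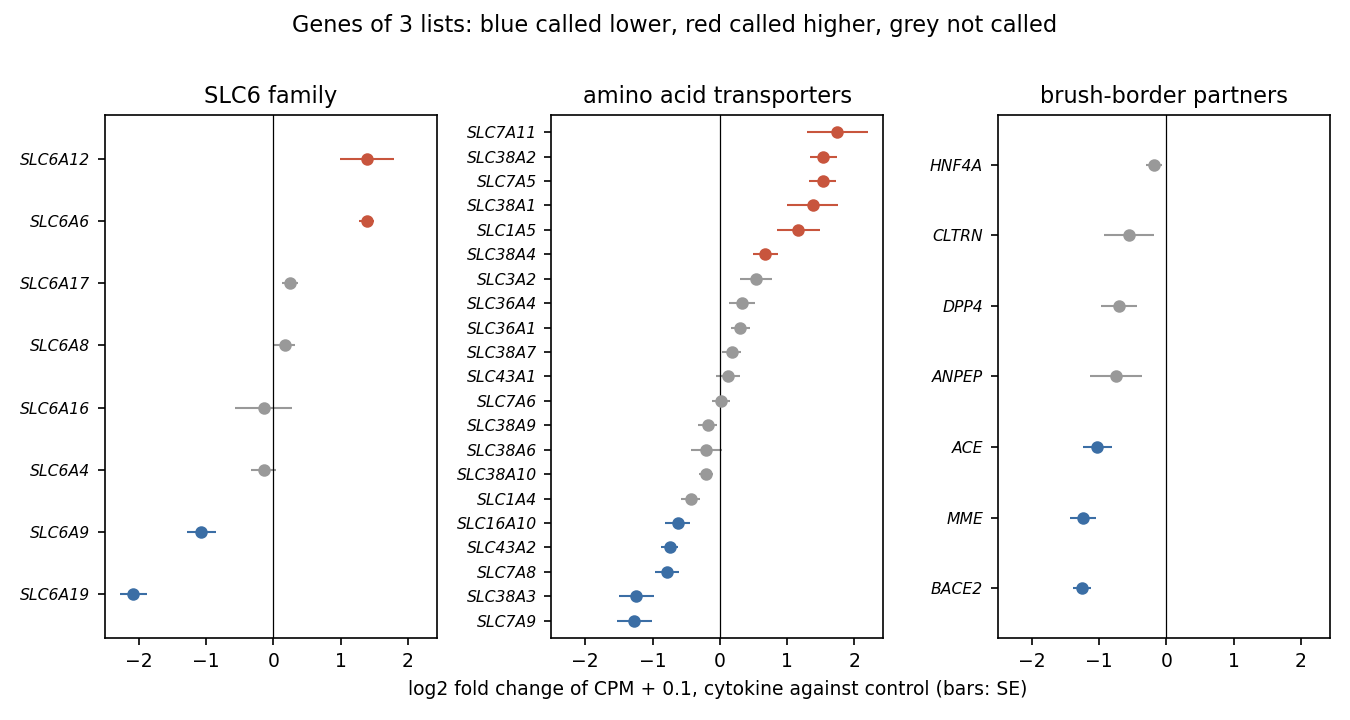
Log2 fold change of CPM + 0.1, cytokine against control, with SE bars, for genes of the SLC6 family, of other amino acid transporters and of the brush-border partners (7 of 8 drawn). The first and second lists hold called genes on both sides of 0, and the third holds called genes on the lower side only.

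Of the markers of kidney proximal tubule and small intestine, VIL1, SLC5A2 and CUBN were listed, and LRP2, SLC34A1, SLC22A6, SLC22A8, UMOD, FABP2 and LCT were not. Their summed level was 268 to 328 CPM in control libraries and 138 to 180 CPM in cytokine libraries, nearly all of it VIL1. VIL1, an actin-bundling protein of microvilli, fell from 286 ± 28.2 to 166 ± 19.7 CPM (SD, n = 4 each; limma adjusted p = 0.00107), and SLC5A2, the kidney glucose transporter, fell from 1.60 ± 0.492 to 0.657 ± 0.0308 CPM (SD, n = 4 each; limma adjusted p = 0.00632). CUBN was not called (adjusted p = 0.189) but was called lower with the replicate block in limma (adjusted p = 0.0206). Of the 9 beta-cell markers 4 were called lower, PDX1, MAFA, SLC30A8 and G6PC2, and 0 higher. Over all genes 17.5% were called lower and 9.52% higher. INS (log2 fold change -0.17, limma adjusted p = 0.684) and UCN3 (-0.26, limma adjusted p = 0.591) were not called. IAPP (log2 fold change 0.93, adjusted p = 0.0765), NKX6-1 (0.39, adjusted p = 0.0920) and CHGA (0.39, adjusted p = 0.422) were not called in limma on CPM. IAPP was called higher with GAPDH scaling (adjusted p = 0.0181), with the replicate block (adjusted p = 3.52e-09), in edgeR and in DESeq2. NKX6-1 was called higher with GAPDH scaling (adjusted p = 0.00995), in edgeR and in DESeq2, and CHGA in DESeq2 and in edgeR with the replicate block. The part of these changes in the falls of TERLR1 and SLC6A18 was not tested.

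The genes whose levels followed TERLR1 most closely over the 8 libraries were PTP4A3, PRODH2, SYTL1, SLC34A3 and PDZD3, each with a Pearson correlation of 0.992 on log2(CPM + 0.1) among 14682 genes that averaged 1 CPM or more. PDZD3 had the largest fall of these 5, from 38.9 ± 10.7 to 4.13 ± 1.03 CPM, and SYTL1 the smallest, from 189 ± 13.5 to 127 ± 8.94 CPM (SD, n = 4 each). For SLC6A18 they were TMIE (0.991), KIF21B (0.989), DACT1 (0.988), PCDHGA11 (0.988), whose reads may be shared with other genes of the protocadherin gamma cluster, and PANX2 (0.987). TERLR1 and SLC6A18 correlated by 0.962 with each other, with 283 genes closer to TERLR1 and 87 closer to SLC6A18. SLC6A19 was nearer to SLC6A18 (0.981, with 8 genes closer) than to TERLR1 (0.958, with 350 closer). All these values span the same 8 libraries of 2 groups, so they hold mainly the treatment difference and are given as a description.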

How the data were processed

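The authors sequenced stranded RNA libraries, aligned the reads to GRCh38 with TopHat2 2.1.1 and counted them on genes with HTSeq 0.9.1, per the labels and methods. The deposited values are CPM of genes that, per the methods, exceeded 0.5 CPM in 4 or more samples; 371 listed genes do so in fewer than 4 of the 8 libraries used. Every value was a whole multiple of 1 read (100% within 0.01 reads), so reads were recovered. Another 4 columns of values were not used. The study used edgeR on counts, whereas the main test here was limma 3.58.1, run in R 4.3.3, because the files hold CPM. It took log2(CPM + 0.1) and an intensity trend, with Benjamini-Hochberg adjustment over 16525 genes. DESeq2 1.42.0 and edgeR 4.0.16, both run on recovered reads, TMM and GAPDH scaling, pseudocounts of 0.5 and 1, a filter at a mean of 1 CPM, no intensity trend, a replicate block and leaving out each library were alternatives, of which the last was added for the name-ending terms after seeing the data. The median of all genes was -0.17 with CPM and -0.012 with TMM, and 64.8% of calls were lower with CPM against 47.3% with TMM. Fits were tested on simulated data. TPM and positions used GENCODE 29, in which 16167 genes had an entry on the same chromosome; promoters are RefSeq's on GRCh38.p14.

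Columns were assigned by the treatment in their names. Deviations from the group mean correlated by 0.574, 0.590, 0.797 and 0.741 within pairs A to D, whose pairing comes from column names that begin alike; control library B correlated with cytokine library A by 0.594. Libraries of a group differed beyond sampling noise, but A and B were far more alike than the others. Chi-square per gene was 5.90 between cytokine libraries A and B and 13.3 between control libraries A and B. All other comparisons within a group gave 66.9 or more. The main test nevertheless took the 4 libraries of a group as equally independent.

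The members and gene lists were chosen with earlier results of these data known. Named genes are TERLR1, SLC6A18, every listed gene within 300 kb, called genes within 1 Mb, called genes and the 3 most abundant of each list, and the 5 most correlated genes per member. A few genes meeting these criteria are left out of the text. Other genes named (EXOC3, SLC9A3, SLC3A2, markers, uncalled brush-border genes) were chosen after their values were seen.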

Additional observations from a re-analysis of the deposited data

Results flagged for a closer look

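Of 26 genes looked at in each group of 4 libraries (52 groups), 1 library stood apart by Dixon's criterion, and chance flags about 1 group in 20. SLC38A1, a glutamine transporter gene, was at 1.001 CPM in cytokine library A against 0.523 to 0.603 CPM in the other cytokine libraries. Neither TERLR1 nor SLC6A18 had such a library in either group.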

How the results depend on the processing

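The log2 fold changes of TERLR1 and SLC6A18 stayed negative in every setting tried. With pseudocounts of 0.5 and 1 they were -3.57 and -3.02 for TERLR1 and -1.85 and -1.27 for SLC6A18. For SLC6A18 edgeR gave -4.20, DESeq2 -4.24, and edgeR with TMM and the replicate block -4.13. Leaving out 1 library gave -4.58 to -4.11 for TERLR1 and -3.49 to -2.97 for SLC6A18, whose mean fell under the filter of 1 CPM, so that it was not tested there. The calls of SLC6A19, SLC12A7 and TRIP13 held in all 18 settings, and those of TERT, CLPTM1L and LPCAT1 stayed absent. BRD9, uncalled throughout, turned sign in 4 settings that leave out a library, with values from -0.069 to 0.12.

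Genes called lower over the table numbered 1928 with TMM scaling, 1297 with GAPDH scaling and 1892 in edgeR, against 2896, and 2397 to 2922 with 1 library left out. Genes called higher numbered 2627 in edgeR with the replicate block, against 1574, and 1375 to 1700 with 1 library left out. Neighbours called lower numbered 3 with GAPDH scaling and 3 to 5 with 1 library left out; those called higher numbered 5 in edgeR with the replicate block and 2 to 3 with 1 library left out. SLC6 genes called higher fell to 1 with a pseudocount of 1 or the filter at 1 CPM, and to 1 to 2 with 1 library left out. Amino acid transporters called lower numbered 3 with TMM and 3 with GAPDH scaling, and 4 to 6 with 1 library left out. Brush-border partners called lower numbered 5 with the replicate block in limma, 3 to 4 with 1 library left out. The pairs, as a replicate block, changed no other count by more than 1.5 times.

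The name-ending term of TERLR1 was called with TMM scaling (-0.81), a pseudocount of 0.5 (-0.54), edgeR (-0.87) and DESeq2 (-0.88), and ranged from -0.90 to -0.50 with 1 library left out. That of SLC6A18 was 0.039 without control library A and ranged from -0.62 to 0.039. The interaction of TERLR1 was -0.095 without cytokine library D and ranged from -0.095 to 0.90. With a pseudocount of 1 the changes of ENSG00000248994, SLC6A12, SLC7A11 and SLC38A1 came under the size needed for a call, and with GAPDH scaling ACE was not called (adjusted p = 0.0527). The causes were not tested, apart from the pseudocount and the filter, whose effect follows from the few reads of SLC6A18.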

Other observations

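Between the 2 name endings, 6 of the 25 neighbours within 1 Mb were called, 4 lower and 2 higher in C and D, or 24.0% against 20.7% of all genes. They were CCDC127 and NDUFS6, a subunit gene of respiratory complex I, at 0.63 and 0.74 on the log2 scale, and SDHA, ZDHHC11, ZDHHC11B and ENSG00000249731, at -0.84, -0.70, -0.67 and -0.75. SDHA has near-identical pseudogene copies, and ZDHHC11 and ZDHHC11B resemble each other, so their reads are uncertain. None of the 7 genes within 300 kb of TERLR1 or SLC6A18 was called by limma, although BRD9 and LPCAT1 had adjusted p of 0.00272 and 0.00439 at differences of 0.44 and 0.39 on the log2 scale. These genes were looked at after their values were seen.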
